A study of Mus musculus with 4 samples.

Results

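The genes described here encode the proteins of the mitochondrial ribosome. They are all genes on the array whose single annotated symbol starts with Mrpl or Mrps followed by a digit, plus Gadd45gip1, and they number 74 of 17097 measured genes. The set holds 46 genes named Mrpl, 27 named Mrps and Gadd45gip1. Gadd45gip1 was added because of its difference between the genotypes, so its values are given as a description and carry no test. The other members were chosen by name. A gene with several probe sets is represented by its brightest set, taken by the mean of all 4 arrays.

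Whole inguinal mammary gland at postnatal day 10 was profiled on 4 Affymetrix 3′ arrays. The groups were Mt2-mmp(-/-) mice, which lack the membrane-anchored matrix metalloproteinase Mt2-mmp (gene symbol Mmp15) in every tissue, with 2 arrays, and Mt2-mmp(+/+) littermates, also with 2 arrays. Both were congenic on C57Bl/6J. The labels give biological replicates but neither the number of mice behind an array nor their sex, so p-values measure only the spread between these arrays. Mmp15 was not analysed here, and the genotype labels were therefore not checked on it. The gland at this age is an epithelial tree in a fat pad, and a bulk sample cannot tell fewer cells of a type from less RNA per cell.

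The mitochondrial ribosome translates the few proteins that the mitochondrial genome encodes, which are core subunits of the respiratory chain and ATP synthase. All of its own proteins are encoded in the nucleus, made in the cytosol and imported. Some descend from bacterial ribosomal proteins and others were added in the mitochondrial lineage. Tissues rich in mitochondria, such as brown fat and muscle, are known to carry many such ribosomes. The product of Gadd45gip1, also called CRIF1, is a mitochondria-specific protein of the large subunit that lies near the exit of the nascent chain, and it was first described as a nuclear binding partner of Gadd45 proteins.

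Cell type marker sums differed between the arrays, some along genotype and some not. In these sums both knockouts lay above both wild types for thermogenic fat and fibroblast markers and below both for luminal, basal and macrophage markers. The sums of the genotypes overlapped for the other marker lists. A sum follows its brightest genes: of 6 fibroblast markers 4 were above and 2 below 0, with a median log2 fold change of 0.03. The part of these lists in the members' values was not tested. The summed log2 signal of 6 hair follicle markers was 12.21 in knockout 1 and 6.70 in knockout 2, against 6.77 in wild type 1 and 11.97 in wild type 2. For 6 thermogenic fat markers the sums were 13.77 and 13.38 in knockouts against 12.89 and 12.82 in wild type, and for 9 proliferation markers 11.46 and 11.49 against 12.01 and 11.12. For 8 luminal markers, which define the epithelium of the gland, the sums were 11.66 and 11.56 against 11.92 and 11.82, so these markers were present on every array. The sums were 9.75 and 9.61 against 9.91 and 10.02 for 6 basal markers and 14.86 and 15.01 against 14.95 and 14.93 for 6 white fat markers. They were 9.98 and 10.52 against 10.10 and 9.77 for 8 skeletal muscle markers, and 11.36 and 11.45 against 11.56 and 11.54 for 6 macrophage markers. For 6 endothelial and 6 fibroblast markers they were 11.92 and 12.14 against 11.96 and 11.86, and 14.63 and 14.63 against 14.60 and 14.52. Single markers could differ where the sums overlapped. Of the 6 endothelial markers 3 were higher in knockouts with groups apart and 3 overlapped. Among the 6 white fat markers 2 were apart on the higher side, 1 on the lower side and 3 overlapped. Over all genes 18.2% were apart on the higher side and 19.4% on the lower side, and these list counts were not tested. Among all marker genes only Lor of the hair follicle and Tnnt3 of muscle stayed within 1 log2 unit of the 10th percentile of all probe sets on every array.

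Upstream windows were available in the RefSeq promoter table (assembly GRCm38.p6) for 65 of the 74 members. Each window runs from 250 bases before to 50 bases after an annotated start. The windows of Mrpl10, Mrpl34 and Mrpl52 were chosen after the windows had been seen, among members with larger differences whose window holds one of the motifs named next. The window of Mrps36, which has the largest difference among members with a window, holds neither and is not shown. The same is true of Mrps25, Mrpl36, Mrpl41, Mrpl46 and Mrpl55, whose differences exceed that of Mrpl52 in size. Other members with a window and such differences hold a motif and are also not shown. The Mrps11 window is shown for a start close to that of another member. Capitals mark the letters GCATGCGC, the core recognised by the nuclear respiratory factor NRF1, and CCGGAAG, which GABP and other ETS factors recognise, on either strand. In the Mrps11 window the capitals mark instead the bases that lie between the start of Mrpl46, read from the opposite strand, and the start of Mrps11. Sequences are written 5′ to 3′ on the strand of the named gene.
Mrpl10, chr11:97041332-97041631, plus strand: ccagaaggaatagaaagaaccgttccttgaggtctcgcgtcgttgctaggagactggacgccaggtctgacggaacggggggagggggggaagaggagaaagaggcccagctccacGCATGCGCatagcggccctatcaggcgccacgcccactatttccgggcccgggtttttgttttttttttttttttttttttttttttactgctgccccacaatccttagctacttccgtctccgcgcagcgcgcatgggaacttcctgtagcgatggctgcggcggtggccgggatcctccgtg
Mrpl34, chr8:71464676-71464975, plus strand: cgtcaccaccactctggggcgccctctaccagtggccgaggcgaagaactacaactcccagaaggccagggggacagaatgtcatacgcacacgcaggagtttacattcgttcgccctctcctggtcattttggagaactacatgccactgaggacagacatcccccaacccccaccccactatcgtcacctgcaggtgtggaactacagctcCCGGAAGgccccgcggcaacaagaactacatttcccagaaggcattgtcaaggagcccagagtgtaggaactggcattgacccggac
Mrpl52, chr14:54426659-54426958, plus strand: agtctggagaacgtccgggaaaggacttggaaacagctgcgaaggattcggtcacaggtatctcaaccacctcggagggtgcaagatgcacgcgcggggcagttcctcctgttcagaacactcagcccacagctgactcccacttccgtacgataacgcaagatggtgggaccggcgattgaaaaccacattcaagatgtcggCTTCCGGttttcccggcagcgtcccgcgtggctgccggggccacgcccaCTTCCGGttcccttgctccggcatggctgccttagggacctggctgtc
Mrps11, chr7:78782881-78783180, plus strand: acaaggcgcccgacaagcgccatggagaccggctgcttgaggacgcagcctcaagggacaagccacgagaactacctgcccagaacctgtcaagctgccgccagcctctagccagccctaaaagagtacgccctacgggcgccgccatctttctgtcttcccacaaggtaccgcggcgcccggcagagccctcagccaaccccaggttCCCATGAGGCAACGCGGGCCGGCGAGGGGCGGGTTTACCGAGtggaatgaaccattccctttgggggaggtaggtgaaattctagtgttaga

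The CCGGAAG letters, searched on both strands, occurred in the windows of 23 of 65 members (35.4%), against 9.93% of the 27025 genes in the table and 15.02% of the genes measured here. The letters GCATGCGC occurred in 7 members (10.8%), against 3.05% of genes in the table and 4.62% of the genes measured here. The longer NRF1 palindrome, which contains them, occurred in 3 members, Mrpl32, Mrpl39 and Mrpl9 (4.62%), against 1.07% of genes in the table and 1.73% of the genes measured here. The Mrpl10 window held GCATGCGC 134 bases before the start. Mrpl34 held CCGGAAG 37 bases before the start, and Mrpl52 held its reverse complement 47 bases before and again 2 bases after the start. Taking the highest GC content among a gene's windows, the median was 58.7% over members, against 53.3% over all genes. These matches describe the letters only. The median log2 fold change was 0.06 for the 23 members with CCGGAAG and 0.01 for the 42 without it, a difference that was not tested.

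Members also often sat head to head with another gene. A start on the opposite strand lay within 1000 bases upstream for 24 of 65 members (36.9%), against 12.3% of all genes in the table. The share among the genes measured here, the closer background, was not computed. Mrpl46 and Mrps11, a large-subunit and a small-subunit protein, are such a pair, with starts 42 bases apart. Mrpl43 faces Twnk, the mitochondrial DNA helicase, at 116 bases, Mrps12 faces Sars2, the mitochondrial seryl-tRNA synthetase, at 147 bases, and Mrpl47 faces Ndufb5, a complex I subunit, at 308 bases. Of 22 members whose partner was measured, 11 had a fold change of the same sign as the partner, counting Mrpl46 and Mrps11 once each.

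Gadd45gip1 was lower in knockouts. Its log2 value was 7.45 on the knockout 1 array and 7.42 on knockout 2, against 8.95 on wild type 1 and 8.94 on wild type 2. The genotypes were far apart and the arrays of each nearly identical: knockouts averaged 7.44 ± 0.024 and wild types 8.95 ± 0.006 (SD, n = 2 per genotype). The log2 fold change, knockout over wild type, was -1.51 (SE 0.063), a 2.85-fold lower level. A second, dimmer probe set built on the same accession read 4.63 and 4.57 in knockouts against 4.48 and 4.17 in wild type. It was higher in knockouts by 0.27 (SE 0.118), opposite to the brighter set, and lay closer to the low end of the array, where the 10th percentile of probe sets was 3.57 to 3.58. Averaging both probe sets gave -0.62. Which probe set follows the transcript was not tested.

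**Figure D1:**
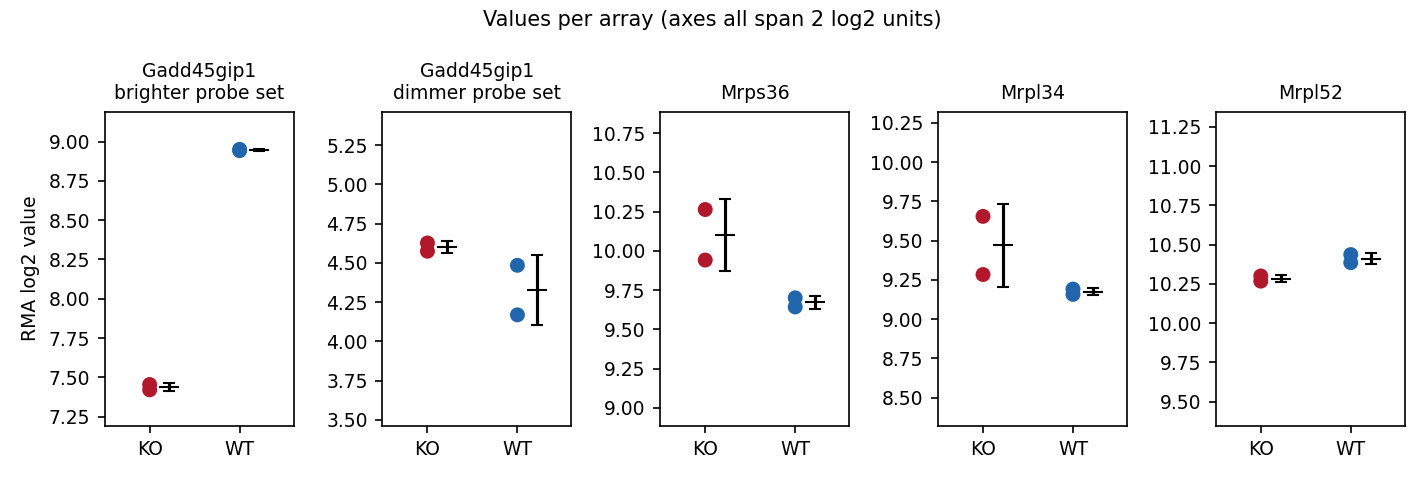
RMA log2 values of both Gadd45gip1 probe sets and of Mrps36, Mrpl34 and Mrpl52 on each knockout (KO, red, left) and wild-type (WT, blue, right) array, with the mean and SD of the 2 arrays in black. The brighter Gadd45gip1 probe set reads 7.45 and 7.42 in knockouts and 8.95 and 8.94 in wild type, while the dimmer one differs by 0.27 in the other direction.

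Gadd45gip1 lies on mouse chromosome 8, the chromosome of the targeted gene, 101 measured genes from Mmp15 in RefSeq order. The 5 measured genes on either side of it had log2 fold changes between -0.39 and 0.20. Syce2, a synaptonemal complex protein 3 genes away, had -0.39 (SE 0.082), and Farsa, a phenylalanyl-tRNA synthetase subunit 2 genes away, had 0.20 (SE 0.065). Neither passed the threshold in limma (adjusted p = 0.693 for both). Calr and Dand5, the immediate neighbours, had 0.03 and 0.01, and the sign of each changed with 1 array left out. The other members on chromosome 8 were Mrpl34, 201 measured genes from Mmp15, at 0.29, and Mrps31, 463 measured genes away, at 0.07. All members together were spread over 17 chromosomes, with the most, 9, on chromosome 11.

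The other 73 members differed far less between the genotypes. Their log2 fold changes ran from -0.13 for Mrpl52 to 0.43 for Mrps36, with 49 above and 24 below 0. In all, 69 of 74 members lay within 0.2 of 0 and 51 within 0.1. The median of the 74 was 0.03, against -0.002 over all genes. The median range over the 4 arrays was 0.190 for members and 0.190 for all genes. At an adjusted p under 0.05 by limma over all genes, 1 member passed, Gadd45gip1, and 0.00585% of all genes did. Since that gene was included for this contrast, nothing is read from the count. Among the other members 0 passed in either direction by limma, and 1, Mrps36, had an unadjusted p under 0.05, where 7.01% of all genes did. The 95% interval, unadjusted for the number of genes, lay inside ±0.5 for 71 of 74 members and reached a median of 0.216 to either side. With 2 arrays a genotype a difference as large as that of Mrps36 did not pass the adjusted threshold either.

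**Figure D2:**
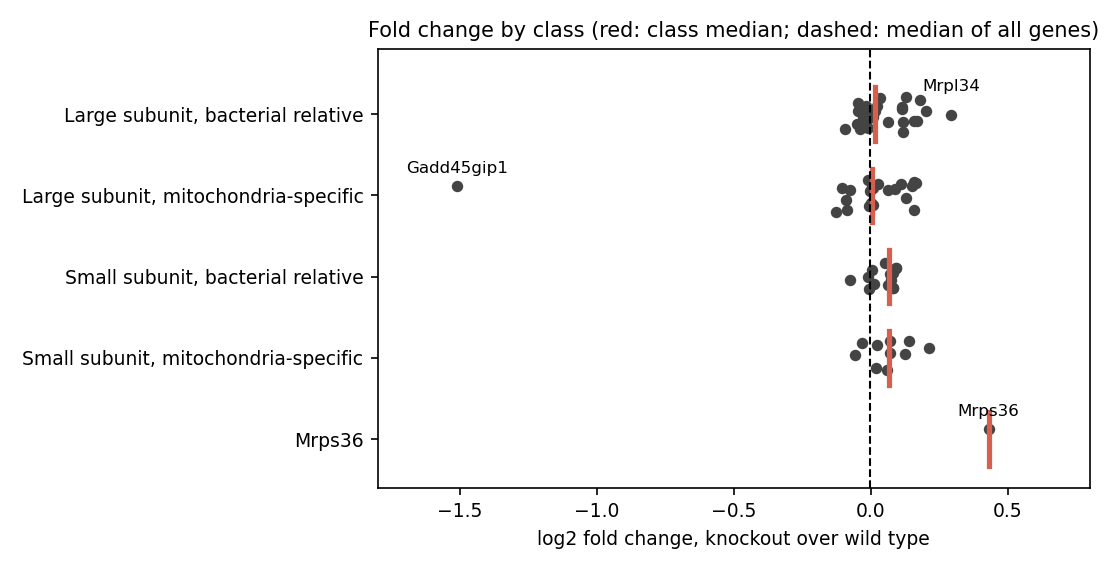
Log2 fold change, knockout over wild type, of the 74 genes (points, scattered vertically for visibility) in 5 classes, with class medians in red and the median of all genes dashed. Mrpl47, Mrps18a and Mrps18b are plotted as mitochondria-specific. Gadd45gip1 lies at -1.51 and Mrps36 at 0.43, while the other points lie between -0.13 and 0.29.

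Large-subunit proteins counted as having bacterial relatives numbered 27, with 16 above and 11 below 0 and a median of 0.01. Mrpl47, which also has a bacterial relative, was counted as mitochondria-specific instead. So were Mrps18a and Mrps18b, whose family has bacterial relatives. Mrpl10, which anchors the flexible stalk that recruits translation factors, read 9.12 and 8.96 in knockouts against 8.87 and 8.81 in wild type. Its groups did not overlap, and its fold change was 0.20 (SE 0.083, limma adjusted p = 0.717), or 0.12 without knockout 1. Mrpl12, the stalk protein itself, chosen after its value was seen, had 0.01, and -0.10 without knockout 1. Mrpl34 read 9.65 and 9.28 in knockouts against 9.19 and 9.16 in wild type, so its difference of 0.29 (SE 0.134) came mostly from knockout 1, and it was 0.11 without that array. Mrpl36, a small zinc-binding protein, had 0.18 with overlapping groups, and 0.07 without knockout 1. Mrpl27, which reaches toward the peptidyl transferase centre, read 10.92 and 10.98 in knockouts against 11.01 and 11.07 in wild type and had -0.09 (SE 0.069).

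Large-subunit proteins counted as mitochondria-specific numbered 22 with Gadd45gip1, Mrpl47 and Mrps18a, 13 above and 9 below 0, with a median of 0.01. Most of the members with the smallest p on the lower side belong here. Mrpl52 read 10.27 and 10.30 in knockouts against 10.39 and 10.44 in wild type. Its groups did not overlap (-0.13, SE 0.065, limma adjusted p = 0.753). Its other bright probe sets had -0.17 and -0.11, and the dim one 0.05. Mrpl48 had -0.10 and Mrpl58, a peptidyl-tRNA hydrolase that frees stalled chains, had -0.09. Mrps30 and Mrps18a, which are named for the small subunit but sit in the large one, had -0.09 and -0.08. On the other side Mrpl41 had 0.17, Mrpl46 0.16 and Mrpl43 0.15, each with groups that did not overlap. All 3 were highest on knockout 1, and without it Mrpl41 had 0.05, Mrpl46 0.04 and Mrpl43 0.09.

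Small-subunit proteins lay slightly above 0 more often. Of 14 counted as having bacterial relatives 11 were above 0 (median 0.07). Of 10 counted as mitochondria-specific, Mrps18b among them, 8 were (median 0.07). Mrps25 read 8.39 and 8.18 in knockouts against 8.10 and 8.05 in wild type, a difference of 0.21 (SE 0.093, limma adjusted p = 0.729), or 0.11 without knockout 1. Its dimmer probe sets had 0.28 and 0.11. Mrps15 was on the lower side at -0.08 (SE 0.064). Small-subunit genes by symbol had a median of 0.06 and large-subunit genes 0.01, and without knockout 1 these medians were -0.03 and -0.03. The difference between the subunits was not tested.

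Mrps36 carries a ribosomal name but its product is known as a component of the α-ketoglutarate dehydrogenase complex of the citric acid cycle. It read 10.26 and 9.94 in knockouts against 9.70 and 9.64 in wild type. Both knockouts lay above both wild types, and the difference was 0.43 (SE 0.121, unadjusted p = 0.0166, limma adjusted p = 0.693). It was 0.27 without knockout 1 and 0.59 without knockout 2.

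The genotypes did not overlap in 18 of the 74 members (24.3%), against 37.6% of all genes. The groups were apart in 12 genes that were higher in knockouts, 16.2% of them, where 18.2% of all genes were, and in 6 that were lower, 8.11%, where 19.4% of all genes were. The share on the higher side is near the background, and the share on the lower side is below it.

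The pattern that most members shared followed a single array rather than genotype. Knockout 1 was the highest array for 55 of 74 members (74.3%), against 24.8% of all genes. Wild type 2 was highest for 15, wild type 1 for 3 and knockout 2 for 1, Mrps6. Knockout 2 was the lowest array for 35 members. The median member lay 0.091 above its own 4-array mean on knockout 1 and 0.048 below it on knockout 2, while wild type 1 was 0.039 and wild type 2 was 0.005 below it. The same median over all genes was -0.005 on knockout 1 and 0.0006 on wild type 2, its lowest and highest values. Knockout 1 therefore stood above the other 3 arrays, and knockout 2 lay close to wild type 1. Without knockout 1 the median fold change was -0.03, with 25 members above and 49 below 0. Without knockout 2 it was 0.10, with 62 above and 12 below, and without wild type 2 it was 0.07. Among members with a wide range, Mrpl38 shows no genotype pattern: it read 8.37 and 7.92 in knockouts against 8.03 and 8.28 in wild type. Mrpl47, the dimmest member, read 5.47 and 5.08 against 5.35 and 5.18.

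**Figure D3:**
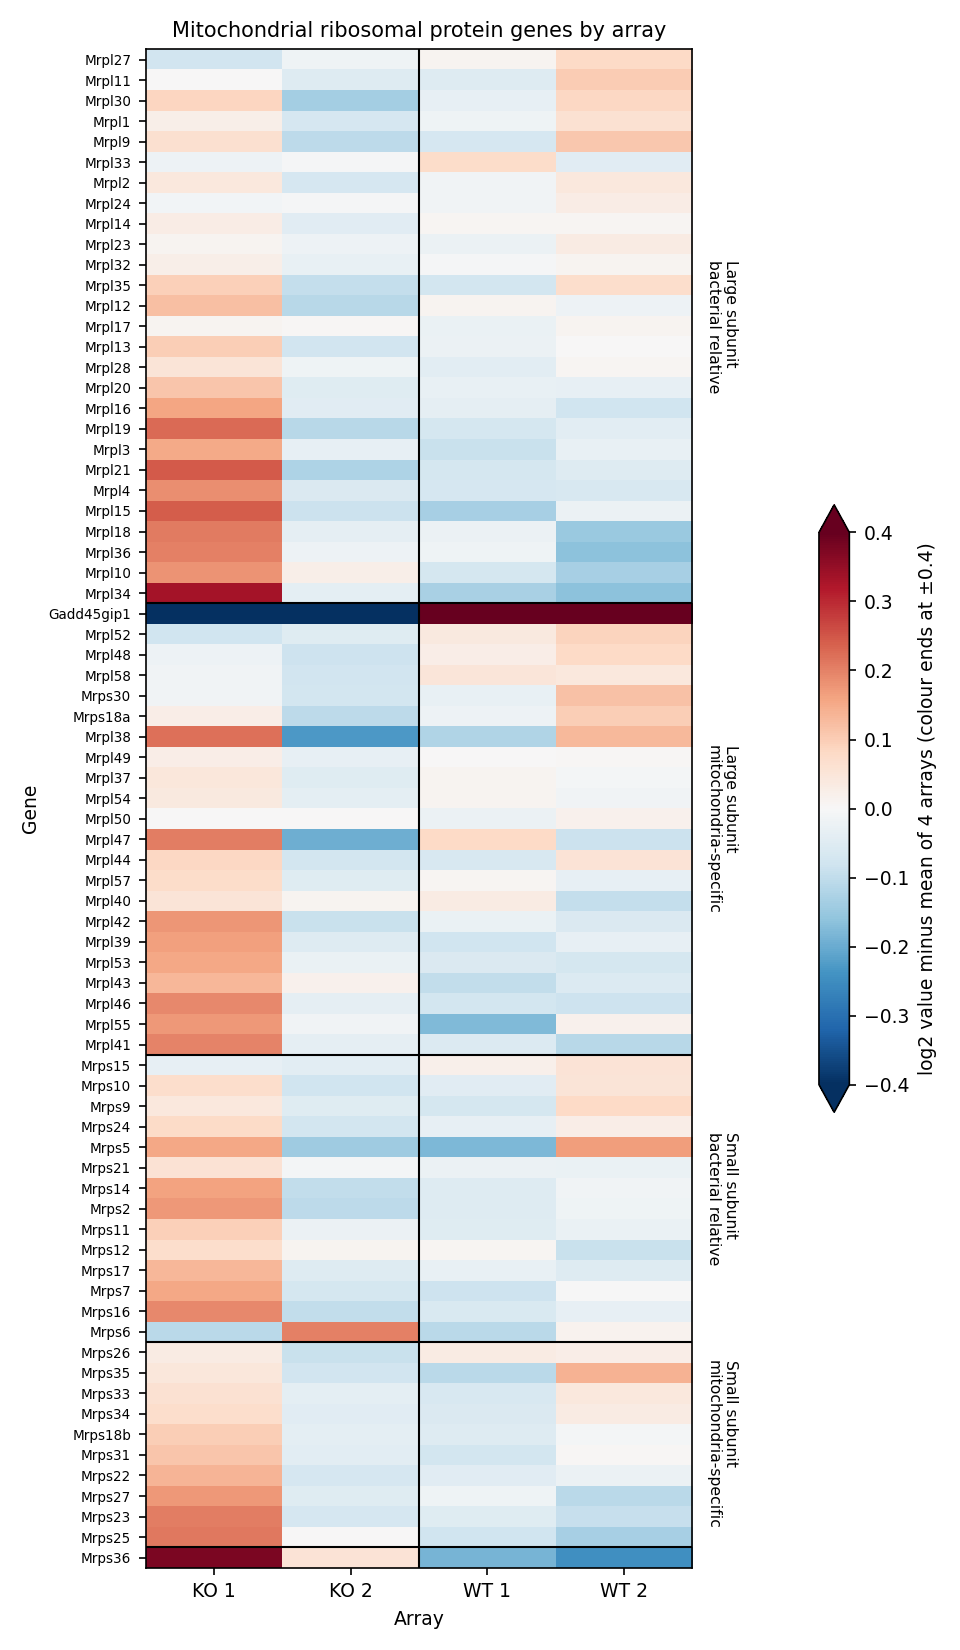
Log2 value of each of the 74 genes minus its mean over the 4 arrays, by array, with knockouts left of wild types and genes sorted by class and fold change. The knockout 1 column is red for most genes, in which it is the highest array 55 times, and Gadd45gip1 is the row in which all 4 arrays lie beyond the colour limit of ±0.4, blue in knockouts and red in wild types.

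The members had 131 probe sets, and 39 had more than 1. In 14 of these the probe sets differed in sign. The widest gap was that of Gadd45gip1 (1.78), followed by Mrpl35, whose bright set had 0.002 and whose dimmest had 0.40, and Mrpl38 (-0.15 to 0.12). A further 6 probe sets were annotated to Mrps25 or Mrps6 together with a second gene and were left out. Those shared by Mrps25 had differences of -0.06, -0.19 and -0.06, opposite in sign to its own sets. Those shared by Mrps6 had 0.26, 0.23 and 0.09. Which gene the shared sets follow was not tested.

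Other genes of the mitochondrial translation machinery were also often highest on knockout 1. Of 3 measured mitochondrial ribosome proteins with other symbols all 3 were above 0, with Ptcd3, a small-subunit protein that binds RNA, at 0.10, Chchd1 at 0.08 and Dap3, a GTP-binding protein of the small subunit, at 0.01. Without knockout 1 Ptcd3 had -0.06 and Chchd1 -0.03. Of 10 translation factors 9 were above 0 (median 0.08), among them Gfm1, an elongation factor, at 0.18 (0.01 without knockout 1), Mtfmt, which formylates the initiator tRNA, at 0.14, and Tsfm, which recharges the elongation factor Tufm, at 0.09. Knockout 1 was highest for 8 of the 10, and without it 5 were above 0 and the median was -0.004. Of 15 mitochondrial tRNA synthetases 11 were above 0 (median 0.05), with Tars2 at 0.16 and Sars2 at 0.13, and with Iars2 at -0.22. Knockout 1 was highest for 11 of the 15, and without it 7 were above 0 and the median was -0.02. Assembly factors were mixed, 12 of 21 above 0 (median 0.03, and -0.006 without knockout 1, when 10 were above 0), with Mpv17l2 at 0.19, Trub2, a pseudouridine synthase, at 0.14 and Ptcd1 at -0.25. In these 4 lists 0 genes passed the limma threshold in either direction. An unadjusted limma p under 0.05 was reached by 1, Iars2, and by 7.01% of all genes.

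Genes that maintain and express mitochondrial DNA or drive mitochondrial biogenesis had 10 of 12 members above 0 (median 0.09, and 0.02 without knockout 1, when 7 were above 0). Ppargc1b, a coactivator of mitochondrial biogenesis, had 0.39 and the nuclear receptor Esrra 0.23, while Polg2, the accessory subunit of the mitochondrial DNA polymerase, had -0.35. Without knockout 1 Ppargc1b had 0.15 and Esrra 0.08. Nuclear genes for subunits of complex I, the first enzyme of the respiratory chain, which also holds subunits made by the mitochondrial ribosome, had 33 of 34 members above 0 with a median of 0.09. The count was the same 33 of 34 after quantile normalization or median centring. RMA had already brought the arrays to a common distribution, so these settings could change little. Examples were Ndufb4 (0.16), Ndufs4 (0.13) and the entry Ndufs5-ps (0.16), named as a pseudogene. Knockout 1 was highest for 31 of the 34, and without it 22 were above 0, with a median of 0.02. No gene of either list passed in limma, where 1 of both, Polg2, had an unadjusted p under 0.05, against 7.01% of all genes. Thermogenic fat markers were also highest on knockout 1: the median marker lay 0.684 above its mean on knockout 1 and 0.115 above it on knockout 2, while wild type 1 was 0.374 and wild type 2 was 0.351 below it. Ucp1, the uncoupling protein of brown fat, read 11.7 and 11.3 in knockouts against 10.3 and 9.53 in wild type. The part of thermogenic fat in the mitochondrial gene levels was not tested.

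With all 4 arrays, cytosolic ribosomal protein genes lay mostly on the other side of 0 from the mitochondrial ones. Of 63 measured genes 60 were below 0, with a median of -0.08, and in 51 (81.0%) the groups did not overlap on the lower side, where 19.4% of all genes did so. The count below 0 was 59 after quantile normalization and 62 after median centring, settings that could change little after RMA. Rps19 read 12.25 and 12.30 in knockouts against 12.38 and 12.51 in wild type (-0.17), and Rpl36a had -0.16. Rpl14 had -0.23 on a far dimmer probe set, with a mean of 6.76 where the median gene of the list had 12.5. None of the 63 passed in limma, and 1, Rpl14, had an unadjusted p under 0.05, against 7.01% of all genes. Wild type 2 was the highest array for 52 of the 63, and with any 1 array left out their median stayed between -0.11 and -0.05. Without knockout 1 both kinds lay mostly below 0. That held for 49 of 74 members (median -0.03) and for 62 of 63 cytosolic genes (median -0.09). Near-identical processed copies of cytosolic ribosomal protein genes are common, so single values may mix sources.

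**Figure D4:**
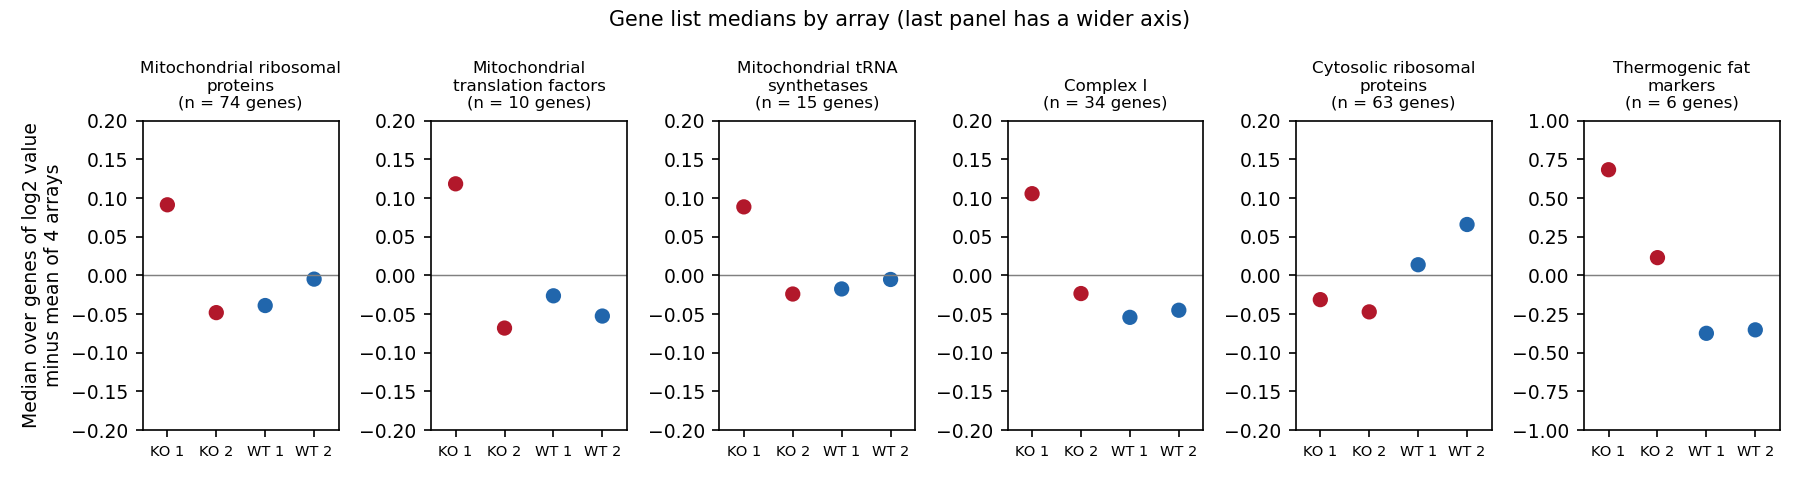
Median over the genes of a list of the log2 value minus the gene's 4-array mean, for each knockout (KO, red) and wild-type (WT, blue) array. The mitochondrial lists are highest on knockout 1, at 0.091 for the ribosomal proteins and 0.106 for complex I, while cytosolic ribosomal proteins are below 0 in both knockouts and above 0 in both wild types.

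The genes of the Gadd45 proteins that bind the Gadd45gip1 product did not move together. Gadd45g had 0.83 (SE 0.357), reading 8.43 and 9.38 in knockouts against 7.79 and 8.35 in wild type, and it had 0.35 without knockout 2. Gadd45b had -0.47 (SE 0.153), or -0.27 without wild type 2, and Gadd45a had -0.06. Of 13 genes that respond to mitochondrial stress 11 were below 0 (median -0.09). Asns, asparagine synthetase, had -0.43 (SE 0.078) and Psat1, an enzyme of serine synthesis, -0.51 (SE 0.136), while the transcription factor Atf5 had 0.28 (SE 0.083). Asns read 9.96 and 10.1 in knockouts against 10.5 and 10.4 in wild type. Without knockout 2 only 7 of the 13 stress genes were below 0, with a median of -0.03, and without wild type 2 the median was -0.04, with 9 below 0. None of these 16 genes passed in limma (adjusted p of 0.651 to 0.693 for Asns, Psat1 and Atf5), and 4 had an unadjusted p under 0.05. Over all genes 7.01% had an unadjusted limma p under 0.05, and the count in these lists was not tested.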

How the data were processed

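The deposited table holds log2 values for each probe set. The authors computed them by RMA (affy package), per the submitters' processing notes, which name no version. RMA forces the arrays to a common distribution, so a change shared by most genes is removed and changes of dim genes are compressed. RNA input was 200 ng, per the labels' protocols. For arrays, their number limits the precision. The table has 45141 probe sets: 104 controls, 28898 with a single symbol, 551 with several and 15588 that the annotation used here does not list. All 74 members matched RefSeq (GRCm38.p6) by gene ID, which was used only for names, gene order and promoter sequence.

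A limma model (version 3.58.1, R 4.3.3; lmFit, eBayes) compared knockout with wild type over 17097 genes. Tests were two-sided, with genotype as the sole term, no filter and Benjamini-Hochberg adjustment. There were 2 residual and 2.96 prior degrees of freedom. With 2 arrays against 2, exact permutation can reach p = 0.333 at the lowest. Lists are described by counts and medians, with no test. Only the limma fit was tested on simulated data. The text names Gadd45gip1, the members of smallest unadjusted p (8 a direction), those on chromosome 8, some of those with the highest or lowest mean, widest range or widest probe set gap, and up to 3 genes of smallest p in each other list. Members, lists, motifs and the split by bacterial ancestry, which was assigned from background knowledge, were chosen with earlier results of these data known. Alternatives were another scaling, a filter on dim genes, other treatments of probe sets or variances, a replicate block and each array left out.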

Additional observations from a re-analysis of the deposited data

How the results depend on the processing

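The count of genes called by limma was 1, and the count of members called was 1. When probe sets were averaged per gene both were 0, and the Gadd45gip1 difference was -0.62; averaging in the dim probe set of opposite sign accounts for that value by construction. With every probe set tested separately, or with robust variances, 2 genes were called, 1 of them a member. A fit with the replicate block called 0 genes and 0 members, and 1185 genes had an unadjusted p under 0.05 by limma; same-numbered arrays deviated oppositely from their group means (r = -0.48 across 17097 genes, which are not independent replicates), so the numbers were not taken as a pairing. A crossed replicate block, knockout 1 with wild type 2, chosen after seeing the data, also called 0 genes and 0 members (1064 genes with an unadjusted p under 0.05 by limma). With 1 array left out, where the lone array is assumed to vary like the other genotype, 0 to 1 genes and 0 members were called by limma, the member median ran from -0.034 to 0.104, and the Gadd45gip1 difference ran from -1.53 to -1.49. With 1 array left out Mrps31 ran from -0.0060 to 0.15, Chchd1 from -0.028 to 0.18, Ptcd3 from -0.055 to 0.25 and Gadd45a from -0.15 to 0.031, each changing sign without knockout 1. Differences close to 0 also changed sign with 1 array left out: Calr ran from -0.019 to 0.076, Dand5 from -0.022 to 0.050, Mrpl12 from -0.10 to 0.12, Mrpl35 from -0.093 to 0.098, Mrpl38 from -0.23 to 0.22, Mrpl47 from -0.19 to 0.21 and Mrps6 from -0.062 to 0.25. Dand5 was -0.000196 and Mrpl35 -0.0073 after quantile normalization, and Mrpl35 was -0.0033 after median centring. Of 53 genes other than Gadd45gip1 that the text gives with a difference, array values or, for Mrps6, its highest array, these 11 changed sign in any of 13 alternatives, and 0 came to pass the threshold. Both replicate blocks, the filter for brighter genes, the intensity trend, robust variances and separate probe set tests leave fold changes unaltered. These settings could therefore not change a sign. Median centring, quantile normalization, a filter for brighter genes and an intensity trend kept both counts at 1. RMA had already scaled the arrays, so the first 2 of these could change little. The gene behind both counts is Gadd45gip1, which was included for this contrast, so nothing is read from the counts holding. With 1 array left out, 39 of the 53 changed sign or moved by over 1.5 times. Dim probe sets limit the reading of signs, and 2 arrays a genotype limit the detection of small differences.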
